A study of Mus musculus with 36 samples.

Results

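The genes described here encode the 3 large families of phase II conjugating enzymes, followed in mouse liver from the last days before birth to adulthood. They were taken by symbol: every glutathione S-transferase (GST, the microsomal ones included), every UDP-glucuronosyltransferase of the UGT1, UGT2 and UGT3 families and every sulfotransferase (SULT) in the table. The rule found 62 of 21889 gene symbols, of which 24 were GSTs, 20 were UGTs and 18 were SULTs. Whole-liver polyadenylated RNA of 36 male C57BL/6 mice was sequenced, 3 mice at each of 12 ages, and age was the factor compared. The ages were Day -2 (2 days before birth), Day 0 (newborn, not yet suckled), Days 1, 3, 5, 10, 15 and 20 (before weaning) and Days 25, 30, 45 and 60 (after weaning). Days -2 to 5 are called perinatal, Days 10 to 20 prepubertal and Days 25 to 60 adolescent and adult. All mice were of 1 sex, and no female was measured in these groups. The paper's methods time Days 0 and 1 from birth and Days 3 to 60 by a fixed morning hour. Time of day can thus differ between ages, and feeding changed with age.

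Phase II enzymes attach a polar group to a foreign or endogenous compound, which makes it easier to excrete in bile or urine. GSTs add glutathione to reactive electrophiles, UGTs add a sugar, mostly glucuronic acid, to bilirubin, steroids, bile acids and many drugs, and SULTs add a sulfonate group to phenols, hydroxysteroids and bile acids. The liver is the main site of all 3 reactions, and the newborn liver is known for low glucuronidation, the setting of neonatal jaundice.

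Values are in FPKM, which counts sequenced fragments relative to transcript length and to the mapped total of the library. Levels can thus be compared between genes per length. Between mice they also depend on the rest of the library. Erythroid transcripts, abundant before birth, lower the other values there, so differences between Day -2 and Day 60 depend on the scaling. The summed FPKM of a library ranged from 353712 to 450597, and steps in the low values put the depth at about 82100000 fragments per library, with relative depths from 0.892 to 1.12. The 10 hepatocyte markers summed to 14420 to 15820 FPKM at Day -2 and to 63739 to 147962 FPKM in the 33 older mice. Other cells were also present: 13 erythroid genes summed to 142441 to 196412 FPKM at Day -2 and to 689 to 790 FPKM at Day 60. Pancreatic acinar genes were high, from 4981 to 22520 FPKM, in 5 mice (Day 0 mouse 3, Day 15 mouse 3, Day 20 mouse 2, Day 45 mouse 1 and Day 60 mouse 1), against at most 1505 FPKM in the other 31, and muscle genes summed to 1253 FPKM in 1 mouse at Day 0. In whole tissue, fewer cells of a type and less RNA per cell cannot be told apart. Below, ± is the SD of 3 mice for a level and the SE for a log2 difference, and a gene was called higher or lower when its limma p, after Benjamini-Hochberg adjustment across the 11149 tested genes, was under 0.05. Log2 differences are on the log2(FPKM + 1) scale, which understates changes of low genes. The largest rises, falls and deficits named below are ranked on this scale, and a ranking by FPKM ratio could differ. The labels do not tell whether mice of 1 age were littermates.

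Most conjugation genes were low around birth and high in the adult, while SULT mRNA was highest just before weaning. The summed GST mRNA at Day -2 was 1452 ± 152 FPKM, against 6675 ± 175 FPKM at Day 60. For UGT mRNA these sums were 48.7 ± 2.83 and 1229 ± 270.1 FPKM. SULT mRNA was 27.8 ± 3.15 FPKM at Day -2, reached 1604 ± 65.8 FPKM at Day 20 and was 131 ± 15.8 FPKM at Day 60. Together the 62 genes held 0.359% of the summed FPKM at Day -2 and 2.03% at Day 60. GST mRNA was the largest of the 3 pools at every age.

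**Figure D1:**
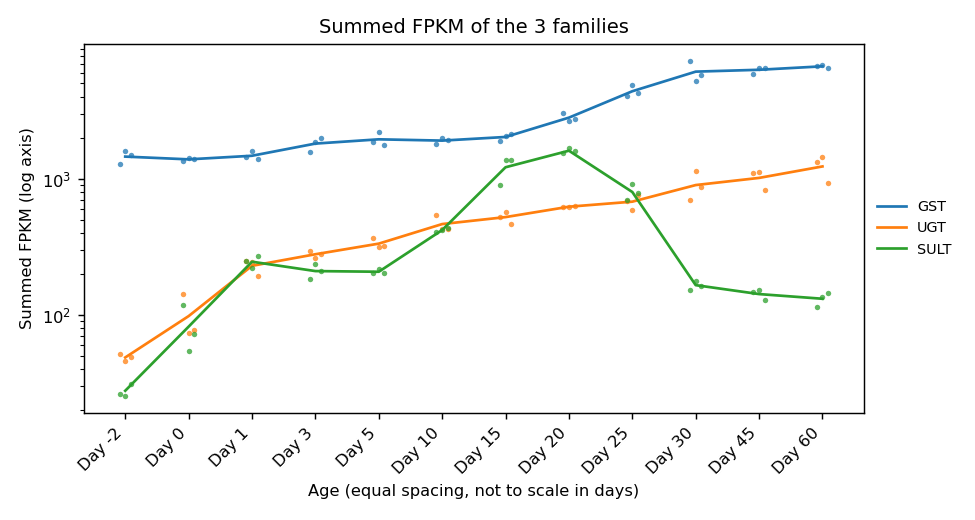
Summed FPKM (log axis) of the GST, UGT and SULT genes in each of 36 livers against age; points are single mice and lines join the means of 3 mice, with the ages equally spaced. The GST and UGT sums were highest at Day 60, at 6675 and 1229 FPKM, while the SULT sum was highest at Day 20, at 1604 FPKM.

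A mean of at least 1 FPKM at 1 age or more was reached by 49 of the 62 genes (22 GSTs, 16 UGTs and 11 SULTs), and only these were tested. All 49 differed from Day 60 at 1 or more of the 11 other ages, where 90.7% of all tested genes did so. In the perinatal against the adolescent and adult ages, 38 were lower and 8 higher, while 15.5% of all tested genes were lower and 70.2% higher. The median log2 difference of the 49 genes was -1.88 and that of all tested genes 0.54 (0.14 after scaling every library to the same upper quartile). All 16 UGTs and 18 of the 22 GSTs were lower in the perinatal liver, whereas the 11 SULTs divided into 4 lower, 4 higher and 3 that did not pass (Sult1d1, Sult2a3 and Sult2a4). The 8 higher genes were Gstm5, Gstt2, Mgst2, Mgst3, Sult1c2, Sult2a1, Sult2a2 and Sult2a6. The test averages log values over ages, and for the 3 Sult2a genes the averages of FPKM ran the other way (20.8 perinatally and 52.8 later for Sult2a1, 33.7 and 74.7 for Sult2a2, 2.05 and 3.29 for Sult2a6). The highest age mean fell in Days 25 to 60 for 35 of the 49 genes (17 GSTs, 15 UGTs and 3 SULTs), in Days 10 to 20 for 9 and in Days -2 to 5 for 5. The prepubertal ages still stood apart from the later ones: 31 genes were lower and 13 higher, against 12.4% and 44.9% of all tested genes.

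**Figure D2:**
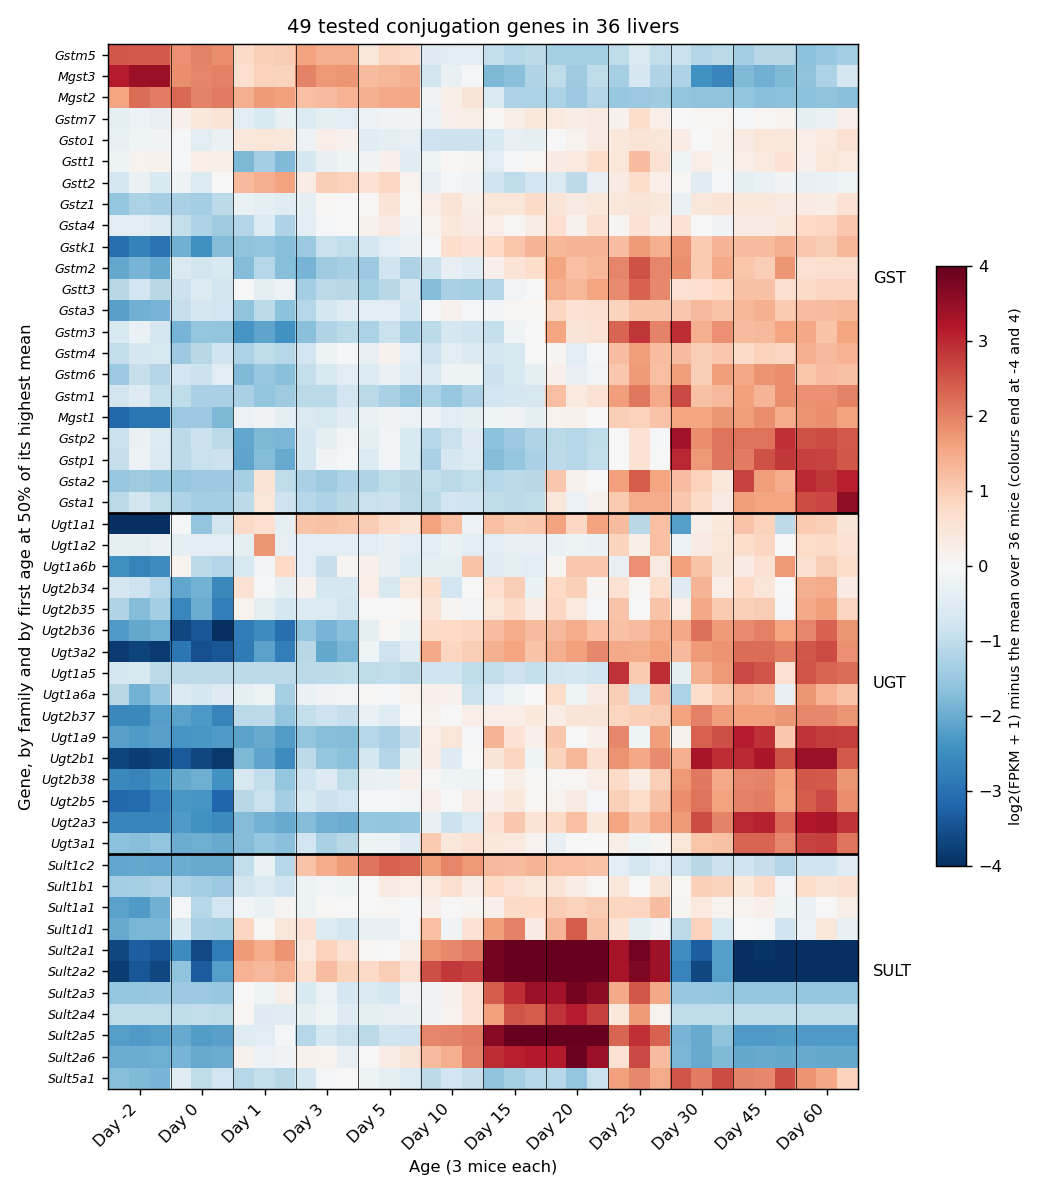
Log2(FPKM + 1) of the 49 tested genes minus the mean of each gene over 36 mice, with 3 columns of mice per age, rows grouped by family and ordered by the first age at which a gene reached 50% of its highest mean. Most rows turn from blue (below the mean of the gene) to red (above it) between Day 10 and Day 60, the top 3 GST rows turn the other way, and the Sult2a rows are red at Days 10 to 25 and blue at Days 30 to 60.

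The distance from the adult closed in steps. Against Day 60, 37 of the 49 genes were lower at Day -2 (18.6% of all tested genes) and 5 higher (56.4%). At Day 20, 21 were lower (6.99%) and 12 higher (8.93%). At Day 25 the counts were 14 (3.24%) and 13 (4.18%), and at Day 30 they were 6 (1.79%) and 5 (1.77%). At Day 45 a single gene differed from Day 60, Gsta1, which was lower (0.170% of all tested genes), and that call was lost under several settings, including the removal of any 1 mouse of Day 45 or of mouse 3 of Day 60. With limma, 0 genes were higher (0.0628%). At an unadjusted p under 0.05, 4 were higher and 7 lower, and Dunnett's test run gene by gene called 2. These comparisons share the Day 60 mice and are not independent of each other. The other comparisons share mice as well.

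Intervals between neighbouring ages were also compared directly. From Day -2 to Day 0, 11 genes rose and 7 fell (13.1% and 41.4% of all tested genes); this split depended on the scaling, with 16 and 5 under a common upper quartile and 9 and 13 when libraries were scaled to a common sum without the erythroid genes, scalings that moved the median of all tested genes from -0.29 to -0.08 and -0.67. From Day 0 to Day 1, 24 rose and 10 fell (23.7% and 7.88%); 10 of the 11 SULTs and all 7 UGT2B genes were among those that rose, and the 10 that fell were GSTs. From Day 20 to Day 25, the interval that holds weaning, 16 rose and 8 fell (3.94% and 3.26%); all 8 that fell were SULTs and 12 of the 16 that rose were GSTs. From Days 25 and 30 to Days 45 and 60, the interval of sexual maturation, 13 rose and 10 fell (2.69% and 5.25%), with 8 UGTs among those that rose and 7 SULTs among those that fell.

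Among the GSTs, microsomal Mgst1, a membrane-bound enzyme that conjugates and reduces lipid hydroperoxides, had the highest age mean (chr6:138088837-138105276, NCBI37/mm9). Its mRNA was 70.3, 81.9 and 82.3 FPKM in the 3 mice at Day -2, 225, 229 and 180.0 FPKM at Day 0 and 537, 573 and 479.8 FPKM at Day 1. The mice of these 3 ages did not overlap, and Mgst1 rose both at birth (log2 difference 1.42 ± 0.12, adjusted p = 8.6e-11, limma) and on the following day (1.33 ± 0.12, adjusted p = 9.15e-10, limma). It then stayed between 422 and 673 FPKM on average to Day 20. At Day 25 it was 1243, 1179.9 and 1379.9 FPKM, against 696, 704 and 619 FPKM at Day 20, again without overlap (log2 difference 0.91 ± 0.12, adjusted p = 1.97e-06, limma), and at Day 60 it was 2144 ± 187 FPKM.

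The pi class took a later and steeper course. Gstp1 and Gstp2 lie next to each other on the minus strand of chromosome 19 (chr19:4035411-4037921 and chr19:4040291-4042221, NCBI37/mm9), and pi-class mRNA is known to be higher in male than in female adult mouse liver. Their coding sequences are 98.1% identical over 633 bases, so how the reads of 1 were divided from those of the other is uncertain. The 130 bases upstream of each annotated start, from RefSeq on GRCm38.p6 (chr19:4037913-4038042 and chr19:4042222-4042351, minus strand), are shown because the 2 genes moved together; capitals mark TGAGTCA, the AP-1 element.
Gstp1: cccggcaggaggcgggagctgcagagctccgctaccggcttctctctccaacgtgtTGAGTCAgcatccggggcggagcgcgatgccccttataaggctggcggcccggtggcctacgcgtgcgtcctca
Gstp2: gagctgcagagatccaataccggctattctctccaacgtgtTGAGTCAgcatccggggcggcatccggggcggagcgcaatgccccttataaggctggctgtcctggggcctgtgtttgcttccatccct
This element, searched as TGAGTCA or TGACTCA on either strand within 250 bases before the start, was found in 8 of 65 promoters of the conjugation genes (12.3%) and in 4.46% of 32851 promoters; it was chosen with these sequences in view. The 2 windows were 88.5% identical over 235 aligned bases, so they are not independent matches.

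Gstp1 mRNA was 139, 221 and 174 FPKM at Day -2, dropped to 59.8, 77.6 and 63.6 FPKM at Day 1 (log2 difference from Day 0 -1.03 ± 0.26, adjusted p = 0.00341, limma) and was 127, 117 and 132 FPKM at Day 20. It rose to 259, 390.3 and 262 FPKM at Day 25, above every mouse of Day 20 (1.24 ± 0.26, adjusted p = 0.00154, limma). At Day 30 it was 2145, 878 and 1162 FPKM, far above Day 25 in each mouse though with a wide spread, and at Day 60 it was 1762, 1709.8 and 1463 FPKM. Gstp1 was lower at Day 25 than at Day 60 (log2 difference -2.45 ± 0.26, adjusted p = 3.78e-08, limma), while the difference between Day 30 and Day 60 did not pass (-0.34 ± 0.26, adjusted p = 0.472, limma). Gstp2, named after its values were seen, had means of 13.2 ± 0.726, 33.2 ± 8.97, 182 ± 107 and 173 ± 9.83 FPKM at Days 20, 25, 30 and 60.

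The most abundant alpha-class gene was Gsta3, which in mice conjugates the aflatoxin epoxide. Gsta3 mRNA was 76.2, 89.9 and 94.1 FPKM at Day -2 and 182, 216 and 202 FPKM at Day 0, without overlap (log2 difference 1.2 ± 0.16, adjusted p = 4.36e-07, limma). It stood at 349 ± 31.2 FPKM at Day 10 and 838 ± 34.7 FPKM at Day 60, and all 12 mice of Days 25 to 60 lay above all 15 perinatal mice (-2.30 ± 0.07 for perinatal against later, adjusted p = 6.65e-22, limma). Gsta1 was later: 2.56, 1.24 and 1.94 FPKM at Day 20, 4.48, 6.37 and 6.37 FPKM at Day 25, 4.53, 3.44 and 2.35 FPKM at Day 30, 7.40, 6.91 and 6.83 FPKM at Day 45 and 15, 15.9 and 29.4 FPKM at Day 60. It rose from Days 25 and 30 to Days 45 and 60 with no overlap of mice (log2 difference 1.24 ± 0.18, adjusted p = 2.02e-05, limma), the largest such rise among the GSTs whose mice did not overlap. Its coding sequence is 97.9% identical to that of Gsta2 over 669 bases, so their separate values are uncertain. One mouse at Day 1 stood apart with 2.67 FPKM of Gsta1 and 3.27 FPKM of Gsta2, where the other 2 had at most 0.474 FPKM of either.

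The mu class, a cluster on chromosome 3 (chr3:107698739-107847812, NCBI37/mm9) whose enzymes handle epoxides and quinones, held members with opposite courses. Gstm1 mRNA was 114, 134 and 99.2 FPKM at Day -2, 113, 119.5 and 121 FPKM at Day 15, 443, 254 and 291 FPKM at Day 20 and 618, 825 and 552 FPKM at Day 25. The step from Day 20 to Day 25 passed without overlap (log2 difference 1.03 ± 0.25, adjusted p = 0.00786, limma), but not without mouse 2 of Day 20 or mouse 2 of Day 25 (adjusted p = 0.0702 and 0.0698). At Day 30, 1 mouse stood out at 1204 FPKM against 431 and 470 FPKM in the others. That same mouse, mouse 1, also had the highest Gstp1, Gstm3 and Gstp2 of its age, and its library had the lowest upper quartile of tested genes of its age (7.06 FPKM, against 9.54 and 9.04 in the others), whose part in the result was not tested. Gstm3 showed the largest perinatal deficit among the GSTs on the log2(FPKM + 1) scale (-3.21 ± 0.14 for perinatal against later, adjusted p = 1.31e-18, limma). It had 0.751, 1.07 and 0.689 FPKM at Day 1 and 44.6, 64.3 and 35 FPKM at Day 25. At Day -2 Gstm3 had itself been 4.86, 6.56 and 4.68 FPKM, and it fell at birth (-1.15 ± 0.30, adjusted p = 0.00208, limma). Gstm4 showed the largest rise of a GST from Day 20, with 19.5, 12.9 and 17.4 FPKM, to Day 25, with 43.2, 59.1 and 42.9 FPKM (log2 difference 1.49 ± 0.20, adjusted p = 6.36e-06, limma).

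A set of 3 GSTs was high before birth and fell afterwards. Mgst3, a microsomal enzyme related to those of leukotriene synthesis, had 342, 416 and 418 FPKM at Day -2, 142, 152 and 157 FPKM at Day 0 and 61.1, 72.8 and 71.8 FPKM at Day 1. Each of these steps was free of overlap and passed (-1.37 ± 0.25, adjusted p = 5.64e-05, and -1.12 ± 0.25, adjusted p = 0.00136, limma). Mgst3 was 138 ± 12.5 FPKM at Day 3, 12.5 ± 3.16 FPKM at Day 15 and 17 ± 6.01 FPKM at Day 60. Over all perinatal against all later ages it had the largest positive difference of the GSTs on the log2(FPKM + 1) scale (3.39 ± 0.12, adjusted p = 5.53e-21, limma).

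The other 2 were named after their values were seen. Gstm5 had 121, 118 and 119.7 FPKM at Day -2 and 5.99, 6.67 and 7.43 FPKM at Day 60, with every perinatal mouse above every mouse of Days 25 to 60 (log2 difference 2.64 ± 0.06, adjusted p = 5.37e-26, limma). Mgst2, which can make leukotriene C4, had 8.51, 13.9 and 12.1 FPKM at Day -2, 1.84, 2.75 and 3.48 FPKM at Day 10 and 0.0219, 0.0437 and 0 FPKM at Day 60 (3.27 ± 0.08 for perinatal against later, adjusted p = 2.89e-25, limma). Blood-cell RNA was also higher in the perinatal than in the later ages. At Days -2, 0, 1, 3, 5, 10 and 15, mean Mgst3 was 392, 150, 68.6, 138, 97.9, 29.8 and 12.5 FPKM. Mean Gstm5 was 120, 80.2, 40.4, 60.1, 34.6, 14.8 and 9.59 FPKM at these ages. Mean Mgst2 was 11.5, 12.8, 8.59, 6.71, 7.88, 2.69 and 0.589 FPKM. The 13 erythroid genes averaged 171432, 79356, 30989, 46359, 30389, 12906 and 3620 FPKM at the same ages and 744 FPKM at Day 60. The 9 neutrophil granule genes averaged 2858, 4149, 2834, 1970, 2066, 548 and 53.4 FPKM at these ages and 2.27 FPKM at Day 60. The part of these cells in the result was not tested.

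**Figure D3:**
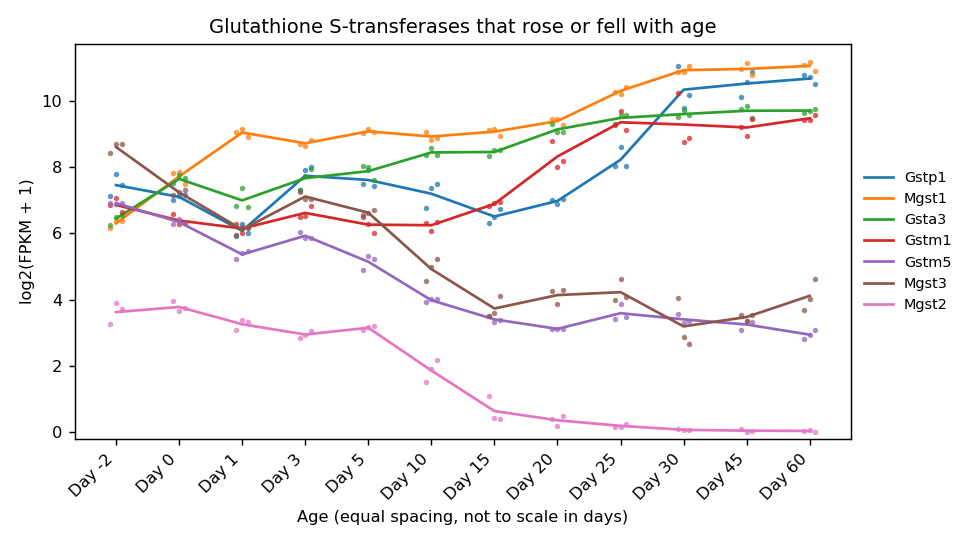
Log2(FPKM + 1) of 7 glutathione S-transferase genes against age (equal spacing); points are single mice and lines join the means of 3 mice. Gstp1, Mgst1, Gsta3 and Gstm1 end high, at 1645, 2144, 838 and 714 FPKM at Day 60, while Gstm5, Mgst3 and Mgst2 end low, at 6.70, 17 and 0.0219 FPKM.

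The theta class moved in opposite directions on the first day of life. Gstt1, which conjugates small halogenated compounds, was 141, 174 and 172 FPKM at Day 0 and 41.1, 55.6 and 42.1 FPKM at Day 1, a fall without overlap (log2 difference -1.80 ± 0.20, adjusted p = 9.75e-08, limma). By Day 5 it was 134 ± 33.1 FPKM again. Gstt2, on the same stretch of chromosome 10, was 23.6, 18.3 and 27.4 FPKM at Day 0 and 67.6, 75.3 and 85.3 FPKM at Day 1, a rise without overlap (1.69 ± 0.20, adjusted p = 2.84e-07, limma), and it was back to 24 ± 2.41 FPKM by Day 10.

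The zeta, omega and kappa classes each had 1 tested gene. Gstz1, the maleylacetoacetate isomerase of tyrosine breakdown, was 109.7, 107 and 131 FPKM at Day 0 and 225, 211 and 196 FPKM at Day 1 (log2 difference 0.87 ± 0.16, adjusted p = 0.000222, limma) and peaked at 411 ± 49.4 FPKM at Day 15. Gsto1, an omega-class thioltransferase, kept between 46.2 FPKM (Day 10) and 117 FPKM (Day 25). Gstk1, the kappa-class enzyme of mitochondria and peroxisomes, was 4.78, 6.27 and 5.02 FPKM at Day -2 and 116, 119 and 119.8 FPKM at Day 20, and was lower in every perinatal mouse than in any mouse of Days 25 to 60 (-2.96 ± 0.10, adjusted p = 1.24e-21, limma).

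Among the UGTs, the sharpest change at birth was that of Ugt1a1, the enzyme that glucuronidates bilirubin (chr1:90108534-90115572, NCBI37/mm9). Its mRNA was 0.0416, 0.0481 and 0.0368 FPKM at Day -2 and 59.7, 20.2 and 36.4 FPKM at Day 0, before suckling. No mouse overlapped, and the difference was the largest at birth among the UGTs (log2 5.13 ± 0.61, adjusted p = 8.67e-08, limma). By Day 3 it was 136, 142 and 134 FPKM, and its highest mean was 164 ± 46.2 FPKM at Day 20, with Day 60 at 112 ± 21.1 FPKM. All 3 mice of Day 3 were above the highest mouse of Day 60, at 128 FPKM, although over all perinatal ages, Day -2 included, Ugt1a1 was lower than later (-1.17 ± 0.29, adjusted p = 0.000498, limma).

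The UGT1A genes share their last exons, each with a first exon of its own, so their values are estimates of how shared reads were divided: 48.8% to 78.3% of the exonic bases of each of the 8 genes were also exon of another. The values of single UGT1A genes differed between mice of 1 age. At Day 25, Ugt1a1 was 151, 28.3 and 145 FPKM in mice 1, 2 and 3, while Ugt1a6b, which with its near copy Ugt1a6a glucuronidates planar phenols, was 35.7, 165 and 58.9 FPKM. The sum over the 8 genes was 241, 206 and 260.2 FPKM in the same 3 mice and varied less. Day 30 mouse 1 and Day 45 mouse 3 were likewise low in Ugt1a1, with 12.8 and 29.4 FPKM, and high in Ugt1a6b, with 142 and 152 FPKM. The upper quartiles of tested genes in these 3 libraries, 8.24, 7.06 and 7.80 FPKM, were the lowest of their ages. The other 6 mice had 8.41 to 9.54 FPKM. Before weaning, mouse 3 of Day 1 and mouse 3 of Day 10 were also low in Ugt1a1, with 47.0 and 52.3 FPKM. They were high in Ugt1a6b, with 78.9 and 100 FPKM, and their upper quartiles, 12.2 and 10.1 FPKM, were again the lowest of their ages. The part of these library differences in the UGT1A values was not tested. Ugt1a6b was named after its values were seen, and its coding sequence is 98.4% identical to that of Ugt1a6a.

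Ugt1a5 was low before weaning and present after it. It was 0.278, 0.295 and 0.225 FPKM at Day 20 and 14.6, 3.42 and 15.4 FPKM at Day 25, the largest rise of a UGT over that interval (log2 difference 3.04 ± 0.43, adjusted p = 1.13e-05, limma). The mouse that was low in Ugt1a5 at Day 25 was the mouse that was low in Ugt1a1. At Day 60 it was 11, 9.66 and 9.08 FPKM, and all 24 mice of Days -2 to 20 had at most 0.381 FPKM, below the lowest later mouse at 0.622 FPKM.

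The UGT2B genes are a cluster on chromosome 5 (chr5:87318792-87853228, NCBI37/mm9) whose enzymes act on steroids, bile acids and many drugs. All 7 were lower in the perinatal than in the later ages, as were 15.5% of all tested genes. Their summed mRNA was 36.7 ± 1.69 FPKM at Day -2, 21 ± 6.40 FPKM at Day 0, 285 ± 41 FPKM at Day 20 and 786 ± 200.1 FPKM at Day 60. Ugt2b1 showed the largest perinatal deficit of the UGTs on the log2(FPKM + 1) scale (-4.91 ± 0.17 for perinatal against later, adjusted p = 2.32e-21, limma). It went from 0.351, 0.239 and 0.312 FPKM at Day -2 through 31.1, 42.6 and 25.8 FPKM at Day 20 to 186, 182 and 93.7 FPKM at Day 60. Every perinatal mouse, at most 12.4 FPKM, lay below every mouse of Days 25 to 60, at least 44.6 FPKM. Ugt2b5, the most abundant of the cluster, was 53.6, 62.9 and 46 FPKM at Day 20, 94.9, 81.7 and 111 FPKM at Day 25 and 266, 307 and 181 FPKM at Day 60, and rose over weaning (0.81 ± 0.21, adjusted p = 0.0110, limma), though not without mouse 3 of Day 20 or mouse 3 of Day 25 (adjusted p = 0.0803 and 0.0724).

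At birth 3 of the 7 UGT2B genes, Ugt2b34, Ugt2b35 and Ugt2b36, fell, as did 41.4% of all tested genes. Counts of falls at birth depended on the scaling. On the following day all 7 rose, as did 23.7% of all tested genes. Ugt2b36 had 7.44, 8.78 and 9.37 FPKM at Day -2 and 2.26, 2.78 and 1.33 FPKM at Day 0 (log2 difference -1.63 ± 0.18, adjusted p = 3.96e-08, limma), without overlap, before it climbed to 69.8 ± 2.94 FPKM at Day 10. Ugt2b34 had 15.8, 14 and 11.2 FPKM at Day -2, 5.36, 6.16 and 3.48 FPKM at Day 0 and 39.5, 24.4 and 19.1 FPKM at Day 1. Its fall (-1.30 ± 0.43, adjusted p = 0.0124, limma) and its rise a day later (2.22 ± 0.43, adjusted p = 0.000296, limma) both passed without overlap, and the latter was the largest rise of a UGT on that day. The fall at birth did not pass without mouse 3 of Day 0, which was also high in pancreatic genes (-1.10, adjusted p = 0.0603). In Day 60 mouse 3, all 7 UGT2B genes were below the other 2 mice of that age, and their sum was 562 FPKM against 850.2 and 947 FPKM.

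Ugt2a3 and the UGT3A genes were also lower in the perinatal than in the later ages. Ugt2a3 was 0.0505, 0.0375 and 0.0293 FPKM at Day -2, 10.1, 14.2 and 7.98 FPKM at Day 20 and 60.3, 62.4 and 47.5 FPKM at Day 60 (log2 difference of perinatal against later -4.43 ± 0.10, adjusted p = 2.22e-25, limma). Ugt3a2, of a family that uses sugars other than glucuronic acid, was 0.355, 0.450 and 0.354 FPKM at Day -2 and 53.1, 33.7 and 36.3 FPKM at Day 10 and did not differ at the test's threshold between Day 20 and Day 25 (-0.13 ± 0.24, adjusted p = 0.849, limma). Its neighbour Ugt3a1 was 8.28, 5.13 and 5.83 FPKM at Day 10, had a mean of 3.72 ± 0.688 FPKM at Day 25, and then had 5.27, 8.67 and 9.18 FPKM at Day 30, 21.6, 21.7 and 16.5 FPKM at Day 45 and 28.2, 29.7 and 18.7 FPKM at Day 60. No mouse of Days 45 and 60 overlapped with those of Days 25 and 30, and this was the largest rise of a UGT over that interval (log2 difference 1.88 ± 0.13, adjusted p = 9.98e-12, limma). The coding sequences of the pair are 93.4% identical.

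**Figure D4:**
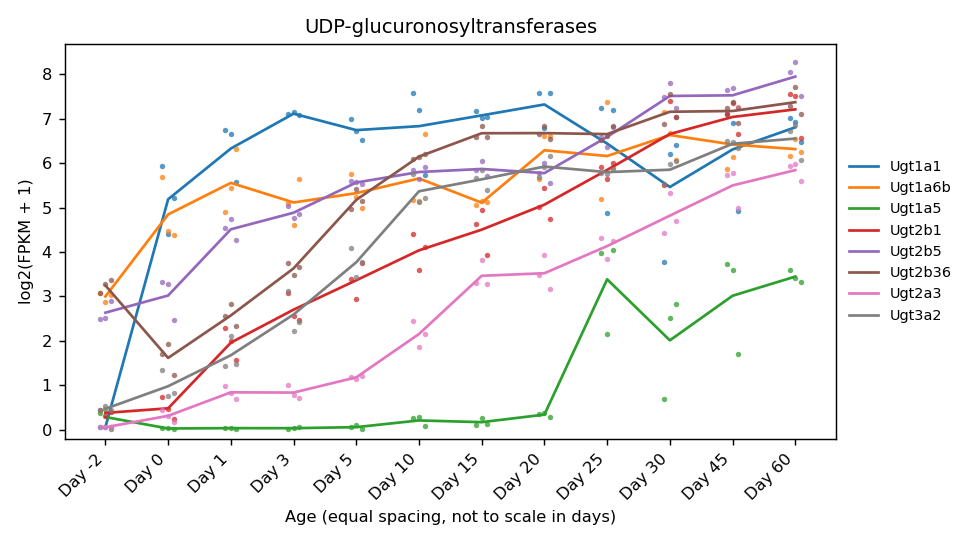
Log2(FPKM + 1) of 8 UDP-glucuronosyltransferase genes against age (equal spacing); points are single mice and lines join the means of 3 mice. Ugt1a1 has means of 0.0422 and 38.8 FPKM at Days -2 and 0, Ugt1a5 has 0.266 and 11.2 FPKM at Days 20 and 25, and the Ugt2b, Ugt2a3 and Ugt3a2 lines climb toward Day 60.

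The SULT2A genes, a cluster on chromosome 7 (chr7:14209341-14840216 for Sult2a1 to Sult2a6, NCBI37/mm9), took the course that set the SULT family apart. Their enzymes sulfonate hydroxysteroids such as dehydroepiandrosterone and bile acids, and in adult mice their liver mRNAs are known to be high in females and low in males. Their coding sequences are similar, for example 94.9% identical between Sult2a1 and Sult2a5, so the levels of single members are less certain than their sum. The 130 bases before the annotated start of 4 members, from RefSeq on GRCm38.p6, are shown because the 6 genes rose and fell together; capitals mark GTTAAT, a run that all 4 hold. Sult2a3 is at chr7:14123049-14123178 (minus strand), Sult2a4 at chr7:13989589-13989718 (minus), Sult2a5 at chr7:13623837-13623966 (plus) and Sult2a6 at chr7:14254871-14255000 (minus).
Sult2a3: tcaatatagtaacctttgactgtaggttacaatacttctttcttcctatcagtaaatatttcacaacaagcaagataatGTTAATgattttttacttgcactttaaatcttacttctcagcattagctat
Sult2a4: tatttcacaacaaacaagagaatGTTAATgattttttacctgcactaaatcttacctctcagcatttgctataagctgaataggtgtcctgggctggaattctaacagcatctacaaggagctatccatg
Sult2a5: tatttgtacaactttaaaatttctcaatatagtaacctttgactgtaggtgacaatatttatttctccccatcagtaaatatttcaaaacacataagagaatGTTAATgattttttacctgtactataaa
Sult2a6: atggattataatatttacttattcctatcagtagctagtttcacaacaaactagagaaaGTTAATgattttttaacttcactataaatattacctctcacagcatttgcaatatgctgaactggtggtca
GTTAAT or ATTAAC (its reverse complement) was found within 250 bases before the start in 13 of 65 promoters of the conjugation genes (20%) and in 6.43% of 32851 promoters. The 13 include the 4 shown here, which share the run marked, so this share is not independent of the choice of the run. The 4 windows of 250 bases were 81.6% to 92.7% identical to each other where they aligned, so the matches are not independent, and a match is no evidence of binding. Other motifs were searched in the same way on both strands. The antioxidant response element core TGACNNNGC was in 4 of the 65 promoters (6.15%, against 10.2% of all promoters), the STAT motif TTCNNNGAA in 4 (6.15%, against 7.02%) and the nuclear receptor half-site AGGTCA in 10 (15.4%, against 14%).

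Together Sult2a1 to Sult2a6 summed to 1.44, 2.34 and 1.92 FPKM at Day -2, 10.2, 2.19 and 6.48 FPKM at Day 0 and 135, 119 and 142 FPKM at Day 1. They summed to 1296, 1425 and 1349.8 FPKM at Day 20, 474, 695 and 504 FPKM at Day 25, 5.85, 2.16 and 8.43 FPKM at Day 30 and 0.272, 0.0980 and 0.151 FPKM at Day 60. Every mouse of Day 20 was above every mouse of Day 25, and each of those was above every mouse of Day 30.

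The first rise came within a day of birth. Sult2a1 was 2.16, 0.484 and 1.60 FPKM at Day 0 and 57.6, 48.9 and 61.9 FPKM at Day 1, the largest rise among the 49 genes over that day (log2 difference 4.63 ± 0.25, adjusted p = 6.32e-14, limma). Sult2a2, whose mRNA was the most abundant of the cluster, was 7.63, 1.61 and 4.75 FPKM at Day 0 and 68, 63.3 and 71.2 FPKM at Day 1 (3.76 ± 0.29, adjusted p = 8.13e-11, limma). At Day 5 their means were 18.3 and 45 FPKM. At Day 20 Sult2a1 was 519.5, 568 and 537 FPKM and Sult2a2 595, 623 and 628 FPKM.

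The fall after Day 20 took in the whole cluster. Sult2a1 was 180.4, 260.2 and 186 FPKM at Day 25 (log2 difference from Day 20 -1.39 ± 0.25, adjusted p = 0.000281, limma), 2.20, 0.819 and 2.92 FPKM at Day 30 and 0.0924, 0.0239 and 0.0676 FPKM at Day 60. Sult2a2 was 257, 353 and 276 FPKM at Day 25, 3.13, 1.11 and 4.70 FPKM at Day 30 and 0.157, 0.0742 and 0.0837 FPKM at Day 60. Its fall from Day 20 passed (-1.07 ± 0.29, adjusted p = 0.0181, limma), but not with a pseudocount of 0.1 (adjusted p = 0.103), nor without mouse 2 or 3 of Day 20 or mouse 1 or 3 of Day 25 (adjusted p from 0.0589 to 0.0724). From Days 25 and 30 to Days 45 and 60 the fall of Sult2a2 was the largest of a SULT (log2 difference -4.87 ± 0.20, adjusted p = 8.76e-17, limma).

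The members with less mRNA also fell. Sult2a4 showed the largest fall from Day 20, with 13.9, 17 and 12.6 FPKM, to Day 25, with 1.71, 5.59 and 1.21 FPKM (-2.17 ± 0.25, adjusted p = 3.47e-07, limma). Sult2a3, Sult2a5 and Sult2a6, named after their values were seen, had means of 34.7, 103 and 46.7 FPKM at Day 20 and of 10, 27.4 and 13 FPKM at Day 25, and each fell between these ages. Sult2a3 and Sult2a4 were listed at 0 in all 6 mice of Days 45 and 60. Sult2a7, which was not tested, was at most 0.0263 FPKM up to Day 20, and its highest mouse, at Day 25, had 1.11 FPKM.

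**Figure D5:**
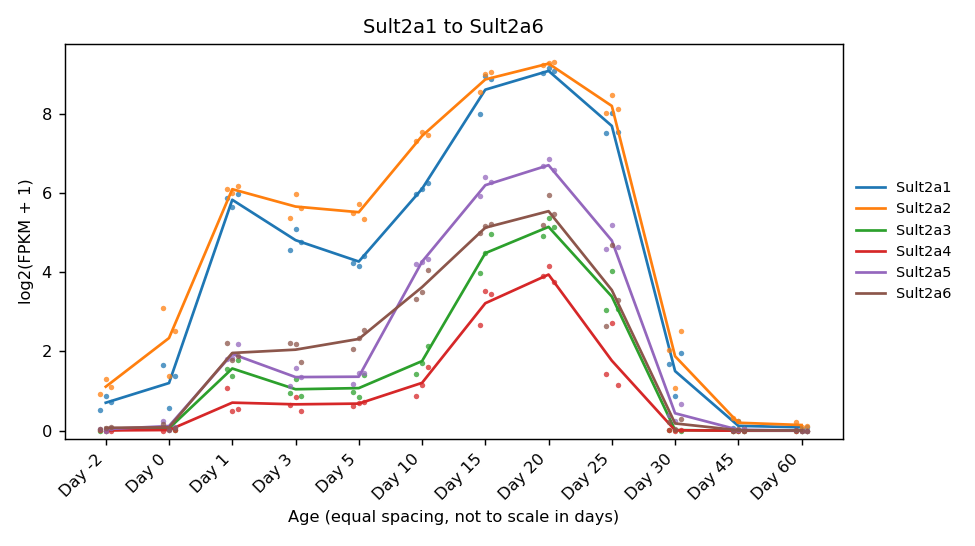
Log2(FPKM + 1) of Sult2a1 to Sult2a6 against age (equal spacing); points are single mice and lines join the means of 3 mice. All 6 lines step up at Day 1, peak at Day 20, where Sult2a1 and Sult2a2 reach 542 and 616 FPKM, and are near 0 at Days 45 and 60.

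The SULT1 and SULT5 genes each had a course of their own. Sult1a1, the main phenol sulfotransferase, was 23.6, 21.6 and 27.8 FPKM at Day -2 and 103, 48.7 and 62.9 FPKM at Day 0, without overlap, the largest rise of a SULT at birth (log2 difference 1.46 ± 0.19, adjusted p = 4.6e-07, limma). It was 195, 195 and 256 FPKM at Day 25 and 89.4, 110.3 and 127 FPKM at Day 60, and the fall from Days 25 and 30 to Days 45 and 60 (-0.57 ± 0.13, adjusted p = 0.00645, limma) did not pass without the 5 mice high in pancreatic genes (-0.52, adjusted p = 0.0599). At Day 60, Sult1a1 made up most of the remaining SULT mRNA, 109 of 131 FPKM on average.

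Sult1c2 was highest in the suckling period. It was 0.0157, 0.0216 and 0.0151 FPKM at Day -2, 17.9, 21 and 19.8 FPKM at Day 5, 8.73, 8.80 and 8.33 FPKM at Day 20 and 2.15, 1.65 and 2.12 FPKM at Day 25. All 9 mice of Days 10 to 20 were above all 12 mice of Days 25 to 60 (log2 difference 2.19 ± 0.09, adjusted p = 1.38e-18, limma). Sult5a1, a family member of unknown substrate, was lower before weaning than after it: 0.962, 0.478 and 1.36 FPKM at Day 20 and 12.5, 15.3 and 11.1 FPKM at Day 25, without overlap, the largest rise of a SULT over weaning (2.87 ± 0.22, adjusted p = 1.34e-10, limma). Sult1d1, which sulfonates catecholamines and was named after its values were seen, fell between the same ages, from 14.1, 30.2 and 11.9 FPKM to 7.56, 3.54 and 4.30 FPKM (-1.63 ± 0.45, adjusted p = 0.0237, limma). That call was lost without mouse 2 of Day 20, mouse 2 of Day 25 or mouse 3 of Day 25 (adjusted p from 0.0802 to 0.171).

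The tested genes not yet described are given here after their values were seen. Gsta4, which conjugates the lipid peroxidation product 4-hydroxynonenal, was 32.1, 32.6 and 29.1 FPKM at Day -2, 22.6, 18.3 and 15.9 FPKM at Day 0 and 78.4, 79.5 and 93.9 FPKM at Day 60. Gstm2 had its highest mean at Day 25, with 61, 92.3 and 61.2 FPKM, and was 23.7, 24.2 and 24.2 FPKM at Day 60, and Gstt3 also had its highest mean there, with 66.5, 91.7 and 67.9 FPKM. Gstm6 was 33, 22.5 and 26.4 FPKM at Day 20 and 61.8, 95.6 and 67.1 FPKM at Day 25. Gstm7 had the smallest ratio of highest to lowest age mean of the tested genes, 1.83, with means between 26.6 FPKM (Day 3) and 48.6 FPKM (Day 25).

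Among the UGTs, Ugt1a9, a phenol-conjugating enzyme, was 0.186, 0.0961 and 0.166 FPKM at Day -2 and 38, 35.8 and 34.8 FPKM at Day 60, with 1 mouse of Day 45 at 10.2 FPKM against 45.5 and 39.3 FPKM in the other 2. That mouse was also the one low in Ugt1a1 and Ugt1a5. Ugt1a2 was 0.0395, 3.67 and 0.0993 FPKM at Day 1, where the high mouse was the one high in Gsta1 and Gsta2, and 1.30, 1.33 and 1.12 FPKM at Day 60. Ugt2b37 and Ugt2b38, whose coding sequences are close to that of Ugt2b5 (94.7% and 97.1% identical), were 1.17, 1.17 and 1.81 FPKM and 1.03, 0.909 and 1.27 FPKM at Day -2 and 48.1, 47.7 and 42.3 FPKM and 67.7, 66.4 and 40.3 FPKM at Day 60. Among the SULTs, Sult1b1, which acts on thyroid hormones, was 0.360, 0.442 and 0.539 FPKM at Day -2 and 4.80, 4.22 and 4.64 FPKM at Day 60.

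The 13 genes that stayed below a mean of 1 FPKM at every age were Gsto2, Gstt4, Sult1c1, Sult1e1, Sult2a7, Sult2b1, Sult3a1, Sult4a1, Sult6b1, Ugt1a7c, Ugt1a10, Ugt2a1 and Ugt2a2. Sult1c1 was listed at 0 in all 36 mice. Sult1e1, the oestrogen sulfotransferase, had its highest values at Day 20, with 0.273, 0.944 and 0.364 FPKM, and at Day 60 was 0.00876 FPKM in 1 mouse and 0 in the other 2. Ugt1a7c had its highest age mean at Day 1, with 0.910, 1.26 and 0.50 FPKM, and was 0.00686, 0.0337 and 0.0525 FPKM at Day 30. Ugt2a1 and Ugt2a2 were listed with nearly the same value in each mouse, at most 0.0760 FPKM, and cannot be told apart here. Values this low rest on few fragments and were not tested.

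Genes around the conjugation step were taken from fixed lists. The single genes named from these lists were chosen after their values were seen. The first list held 11 tested genes, namely 8 transferases of methyl, acetyl, glycine or taurine groups, 2 epoxide hydrolases and the quinone reductase Nqo1. Of these, 10 were lower in the perinatal than in the later ages, as were 15.5% of all tested genes, and only Nqo1 was higher (0.56 ± 0.08), as were 70.2% of all tested genes. These shares are the background for the other lists too. Nnmt, which methylates nicotinamide, had mean levels of 0.657 and 129 FPKM (log2 difference -6.24 ± 0.17), and Baat, which conjugates bile acids, 4.32 and 55.9 FPKM (-3.52 ± 0.08). Of 8 genes of cofactor supply, 3 were lower and 3 higher. Ugdh, which makes UDP-glucuronic acid, was among the lower ones, with 3.27 against 25.5 FPKM (-2.57 ± 0.12). Between Days 20 and 25 it rose from 5.46 to 17.8 FPKM (1.53 ± 0.25, adjusted p = 9.25e-05, limma). Ugp2, of the same list, fell over that interval from 42.8 to 19.4 FPKM (-1.11 ± 0.26, adjusted p = 0.00529, limma). Of the 8 genes, 1 rose and 1 fell there, as did 3.94% and 3.26% of all tested genes. Papss2, which makes the sulfonate donor, had 31.8 and 21.5 FPKM at these ages, a difference that did not pass (-0.55 ± 0.29, adjusted p = 0.300). Of 6 exporters of conjugates 2 were lower and 3 higher, and of 5 genes of deconjugation 2 were lower and 3 higher, Ggt1, which starts the breakdown of glutathione conjugates, having 19.5 against 0.316 FPKM (3.68 ± 0.18).

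Of 8 regulators of these enzymes, 1 was lower (Nr1i3, the CAR receptor) and 3 were higher in the perinatal liver, where 15.5% of all tested genes were lower and 70.2% higher. From Day 20 to Day 25, 0 of the 8 rose and 0 fell, where 3.94% of all tested genes rose and 3.26% fell. The largest difference of the 8 was that of Ahr, with 2.06 and 0.977 FPKM at these ages (-0.63 ± 0.29, adjusted p = 0.229, limma). Nfe2l2, which drives GST genes under oxidative stress, had 5.77 and 6.65 FPKM (0.14 ± 0.28, adjusted p = 0.858, limma), and Nr1i3 had 28.5 and 21.8 FPKM (-0.35 ± 0.19, adjusted p = 0.317). From Day 0 to Day 1, when 23.7% of all tested genes rose, 3 of the 8 rose. These were Nfe2l2 (1.17 ± 0.28), Nr1i3 (1.08 ± 0.19) and Nr1i2, the PXR receptor (0.85 ± 0.16). The part of the regulators in the courses of the conjugation genes was not tested.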

How the data were processed

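Gene-level FPKM values of 36 livers were used as deposited by the authors, who prepared polyadenylated RNA libraries, sequenced them as read pairs, aligned them with TopHat 1.2.0 to NCBI37/mm9 and quantified genes with Cufflinks 1.0.3 on Ensembl annotation. FPKM divides by mapped fragments, so a large class of transcripts, such as the erythroid ones before birth, lowers all other values, and Cufflinks divides reads shared by near-identical genes by estimation. Where whole fragments could be recovered, 83.2% of the low values were whole to within 0.1 fragment. The steps and relative depths were fitted to these same values, so this share is no test of them. Depth was about 82100000 fragments per library.

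The 11149 genes whose mean reached 1 FPKM at 1 age or more were tested as log2(FPKM + 1) in limma 3.58.1 (R 4.3.3) with a mean-variance trend and 1 mean per age, two-sided, with the Benjamini-Hochberg adjustment within each comparison (over genes and the 11 ages together for a difference from Day 60 at any age). The labels give the strain as C57BL/6 and the methods as C57BL/6J. Samples were grouped by the age in their labels, and replicates of 1 age were treated as separate mice. Values were given for the gene with the largest called rise and fall without overlap in each family and comparison and for the most abundant gene of each subfamily. Any other gene was chosen after its values were seen, among them the single genes named from the lists around the conjugation step. The genes and gene lists were chosen with earlier results of these data known. Alternatives were a pseudocount of 0.1, no filter, a filter at 5 FPKM, a common upper quartile, a sum of 1000000 (TPM), no trend, the replicate number as a block, Dunnett's test per gene, and each mouse left out in turn; a common sum without erythroid genes and the removal of 5 mice high in pancreatic genes were added after seeing the data. Promoters are from RefSeq on GRCm38.p6 and matched 54 of the 62 genes, with 65 promoters; unmatched were Gsta4, Gstt2, Sult2a1, Sult2a2, Sult2a7, Sult4a1, Ugt1a6b and Ugt3a2. Gene positions are on NCBI37/mm9. The statistics were tested on simulated data. Python 3.11.15 with pandas 2.3.3, numpy 2.4.6, Biopython 1.88 and matplotlib 3.10.9 was used.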

Additional observations from a re-analysis of the deposited data

How the results depend on the processing

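Of 738 gene values in 82 gene-by-comparison pairs under 9 alternatives, 729 kept their direction and their side of the threshold, 8 kept the direction but no longer passed and 1 changed sign, and of 2952 values with 1 mouse left out 21 no longer passed and 1 changed sign. The sign changes were in differences that had not passed: Gstz1 in Days 10 to 20 against Days 25 to 60 was -0.063 under a common upper quartile, and Nfe2l2 from Day 20 to Day 25 was -0.01 without mouse 3 of Day 25. Without the 5 mice high in pancreatic genes, Sult1a1 after Day 30 (adjusted p = 0.0599), Sult2a2 (0.0890), Gstm1 (0.109) and Sult1d1 (0.152) after Day 20, and Ugt2b34 at birth (0.0581) no longer passed. Ugt1a1 in Days 10 to 20 against Days 25 to 60 had adjusted p values of 0.0552 without a filter, 0.0581 under a common upper quartile and from 0.0532 to 0.0859 without 1 of 9 single mice. From Day -2 to Day 0, 13 conjugation genes fell under a common sum without erythroid genes. At Day 45, 0 differed from Day 60 in limma under a pseudocount of 0.1, a common upper quartile, TPM and without the 5 mice, with 10, 7, 9 and 8 at an unadjusted p under 0.05, while Dunnett's test per gene called 2 with all mice. The log2 ratio of the summed GST mRNA at Day 60 over Day -2 was 2.20, but 2.81 under a common upper quartile and 1.57 without erythroid genes, and that of UGT mRNA was 4.66, 5.26 and 4.01; the cause is the scaling itself. With 1 mouse left out, counts at Day 45 ranged from 0 to 1, and the other counts stayed within 1.5 times. With the replicate number as a block, the counts of higher and lower genes were 8 and 39 perinatally, 26 and 10 at Day 1 and 17 and 8 at Day 25, and no count moved by more than 1.5 times. The numbers name different mice: over 198 same-numbered pairs the median correlation of deviations was 0.126, with 104 over 0.1, against -0.0476 for mice of other numbers, and 23 of 36 mice correlated best with their own number, a hint from the data and not from the design.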
